A study of Rattus norvegicus with 28 samples.

Results

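Schwann cell and myelin genes were followed in the proximal gastrocnemius of rats during neuromuscular blockade and mechanical ventilation. The 8 genes, Pmp2, Pmp22, Mbp, Prx, Sox10, S100b, Mag and Cnp, were chosen by symbol for their function in the nerve. Earlier results of these data were known when the genes were chosen. Of the 26208 probe sets in the table, 9 carry 1 of these symbols, because Mbp is measured by 2 probe sets and the others by 1 each. RNA was measured in 28 female Sprague-Dawley rats with Affymetrix Rat Gene ST microarrays, 1 array per rat. The 5 control rats were sham operated under isoflurane, breathed spontaneously, received no α-cobrotoxin and were killed within hours. The 23 ventilated rats were kept under isoflurane and received α-cobrotoxin, which blocks acetylcholine receptors at the muscle endplate, as a first dose of 100 µg and then as an infusion of 250 µg per day. They form groups of 13 rats at 6 hours to 4 days (6h-4d), 4 rats at 5-8d and 6 rats at 9-14d. Long sedation, ventilation, paralysis, immobility and the time since surgery came together in every ventilated rat, so their parts in a change cannot be told apart. The first group also pools rats from hours to days. The source labels of the control samples mention the blocker and ventilation, against their titles, their sample type and the study's methods, which were followed.

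Schwann cells are the glia of peripheral nerve. Around large axons each one wraps a segment of membrane into myelin, whose compact layers are held together by a few abundant proteins, and at the endplate non-myelinating terminal Schwann cells cover the nerve ending. When an axon is lost, Schwann cells are known to shut down their myelin genes and to take up a repair state. The toxin acts on the muscle side of the synapse and does not cut the nerve.

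The deposited values are the log2 change of each ventilated group against the control group and its adjusted p from limma, the moderated linear model that the study's methods name. Values of single rats were not used here. Standard errors, 95% intervals and the SD between rats of one group were recovered from the adjusted p-values and the numbers of rats, and a probe set passed the test at an adjusted p below 0.05. The table holds ratios only, so neither the level of a gene nor its presence in the tissue can be read from it. In muscle RNA, fewer Schwann cells and less RNA per Schwann cell cannot be told apart. Nor can either be told from a change in other cells that make the same RNA.

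Most of the Schwann cell and myelin genes showed no change that passed the test at any duration, while Cnp and 1 of the 2 Mbp probe sets rose at 9-14d. At 6h-4d, 0 of the 9 probe sets passed, where 3.54% of all probe sets did (1.49% up and 2.06% down), and 0 had an unadjusted p below 0.05. At 5-8d again 0 of 9 passed, where 26.2% of all probe sets did (14.9% up and 11.4% down), and 2, Pmp22 and Cnp, had an unadjusted p below 0.05. At 9-14d, 2 of 9 rose and 0 fell, beside 35.5% of all probe sets that passed, 17.3% that rose and 18.2% that fell, so the number that rose is near the share of the whole array. With a fold change of at least 2 required as well, Cnp alone was called, at 9-14d, where 3.01% of all probe sets were called up and 5.12% in either direction. At 6h-4d and 5-8d, 0.549% and 5.21% of all probe sets were called at that fold, and 0 of the 9. Their median log2 change stood at 0.14 at 6h-4d, -0.04 at 5-8d and 0.14 at 9-14d. Over all probe sets it was -0.01, -0.04 and -0.07.

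**Figure D1:**
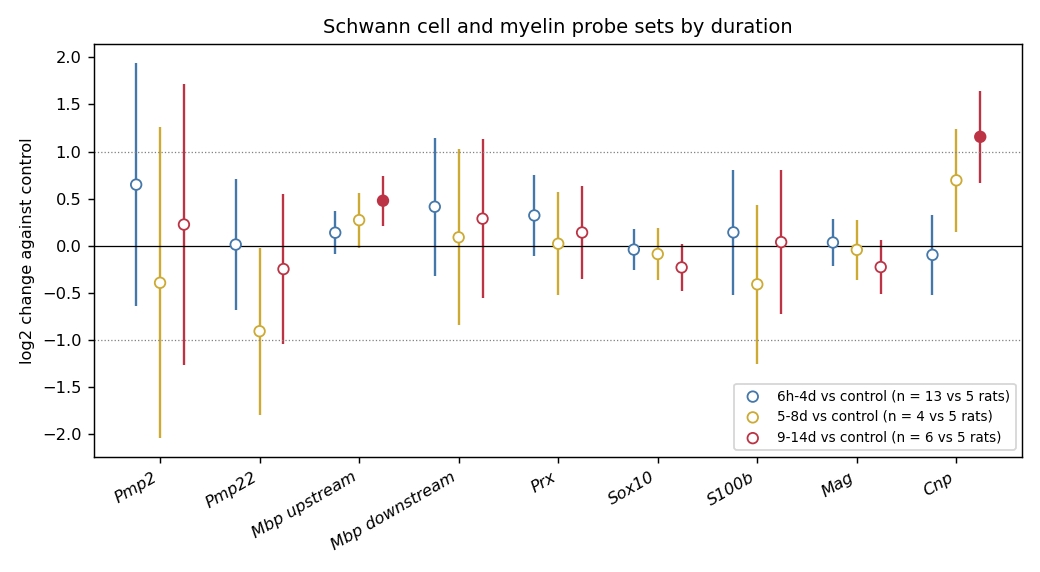
Log2 change against control (vertical axis) of the 9 probe sets of the 8 Schwann cell and myelin genes at 3 durations, with 95% intervals as bars and dotted lines at a 2-fold change. Filled points passed an adjusted p below 0.05, which only Cnp (1.16) and the upstream Mbp probe set (0.48) did, both at 9-14d.

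Cnp encodes 2',3'-cyclic nucleotide 3' phosphodiesterase, an abundant enzyme of the cytoplasm-filled channels of myelin that other cell types also make at lower levels. Its log2 change was -0.09 at 6h-4d (95% interval -0.52 to 0.33), 0.70 at 5-8d (0.15 to 1.24) and 1.16 at 9-14d (0.67 to 1.65). The adjusted p-values from limma were 0.887, 0.0527 and 0.000449 in that order. Cnp thus stood close to the controls early and 2.23-fold above them at 9-14d (interval 1.59 to 3.13), and the 1.62-fold difference at 5-8d missed the threshold narrowly. When every comparison was centred on its median, the value at 5-8d became 0.74 and passed. The probe set has 30 probes on chromosome 10, plus strand, 89519419 to 89525978 of the rat build RGSC 3.4, and is not marked as cross-hybridising.

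The probe sets with a single symbol whose 3 changes lay nearest to those of Cnp, by Euclidean distance over the 3 durations, were 2 of Rps20 and 1 of Osbpl3. Rps20, a protein of the small ribosomal subunit, had log2 changes of -0.06, 0.73 and 1.11 in the nearer of its probe sets (distance 0.0655). Osbpl3, an oxysterol binding protein, had -0.09, 0.72 and 1.06 (distance 0.0984). With only 3 points per profile, 83 probe sets lay within a distance of 0.25 of Cnp, so likeness of this kind is common.

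Cnp and Pmp22 had the highest and the lowest log2 change among the 9 probe sets at both later durations, and their start site windows are shown for that reason. The sequences are from RefSeq on the rat build GRCr8 and run from 250 bases before to 50 bases after the annotated start, at chr10:86011254-86011553 for Cnp and chr10:48294682-48294981 for Pmp22, both on the plus strand. Capitals mark ACAAAG or ACAATG on either strand, letters that fit the core bound by SOX factors such as Sox10.
Cnp: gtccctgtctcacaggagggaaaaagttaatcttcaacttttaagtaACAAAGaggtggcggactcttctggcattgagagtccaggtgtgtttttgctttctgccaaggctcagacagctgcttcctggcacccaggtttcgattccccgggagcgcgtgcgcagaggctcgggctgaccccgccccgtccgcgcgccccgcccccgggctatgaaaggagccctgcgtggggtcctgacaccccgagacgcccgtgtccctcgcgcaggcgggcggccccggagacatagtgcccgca
Pmp22: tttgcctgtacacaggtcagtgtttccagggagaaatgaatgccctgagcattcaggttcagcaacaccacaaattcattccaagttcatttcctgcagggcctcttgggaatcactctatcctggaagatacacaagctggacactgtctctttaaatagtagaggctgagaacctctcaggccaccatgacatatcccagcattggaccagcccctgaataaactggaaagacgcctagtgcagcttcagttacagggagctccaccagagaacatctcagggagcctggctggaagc
Cnp holds 1 such match, ACAAAG, which begins 203 bases before the start, and Pmp22 holds 0. Windows were found for 6 of the 8 genes, 7 in all because Mbp has 2 start sites, and 3 of the 7 hold a match, those of Cnp, Mag and the downstream start of Mbp. Over all 33469 windows of this length, 29.1% hold one. A match of 6 letters is a description and not a binding site.

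Mbp encodes myelin basic protein, which draws the cytoplasmic faces of compact myelin together. The gene has 2 annotated start sites, 79593 bases apart in GRCr8, and the transcripts from the upstream start, known as golli, are also made outside myelin, among other places in cells of the immune system. The 2 probe sets divide along this line. All 27 probes of the upstream set (chromosome 18, plus strand, 78943608 to 79026502 of RGSC 3.4) match transcript variant 6, and 6 of the 27 match variants 1 to 5. All 35 probes of the downstream set (chromosome 18, plus strand, 79025589 to 79057333) match variant 1, 28 to 32 match variants 2 to 5, and 6 match variant 6.

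The upstream Mbp probe set had log2 changes of 0.14 at 6h-4d, 0.27 at 5-8d and 0.48 at 9-14d, with standard errors of 0.11, 0.14 and 0.13. The last of these passed (adjusted p = 0.00478 from limma) and is a 1.39-fold rise, with an interval of 1.16 to 1.67. The downstream probe set, which covers the myelin transcripts, had 0.42, 0.09 and 0.29, and 0 of these passed (adjusted p = 0.631, 0.913 and 0.599). Its standard errors were 0.36, 0.46 and 0.41, smaller than the value at 6h-4d only. At 9-14d its interval ran from -0.55 to 1.13, which includes the value of the upstream set, so the probe sets were not shown to differ. Only the upstream set passed at 9-14d, where its standard error was 0.13 against 0.41 for the downstream set. Which transcripts account for the rise was not tested.

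Pmp2 and Pmp22 encode proteins of compact peripheral myelin. Pmp2 is a small lipid carrier of the fatty acid binding protein family. Pmp22 is a membrane protein, and changes in its gene dose are known to cause inherited neuropathy. Pmp2 (chromosome 2, 93566329 to 93569296 of RGSC 3.4) had log2 changes of 0.65, -0.39 and 0.23 at 6h-4d, 5-8d and 9-14d. Its 95% interval at 9-14d, -1.26 to 1.71, admits both a 2-fold fall and a 2-fold rise, and the adjusted p-values from limma were 0.680, 0.775 and 0.825. No direction can be given for Pmp2.

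Pmp22 (chromosome 10, 49305835 to 49335864 of RGSC 3.4) had log2 changes of 0.01, -0.90 and -0.25. The value at 5-8d is 0.534 times the control level, with an interval from 0.289 to 0.986, and its unadjusted p of 0.0454 became 0.129 after adjustment over the table. By 9-14d the interval reached from -1.04 to 0.55. The 5-8d value was the lowest of any of the 9 probe sets at any duration, and it rests on 4 rats.

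Prx and Mag act at the outer and inner borders of the myelin sheath. Periaxin, the product of Prx, ties the outer Schwann cell membrane to the basal lamina, and Mag, myelin-associated glycoprotein, faces the axon. Prx (chromosome 1, 82577850 to 82598184 of RGSC 3.4) had log2 changes of 0.32, 0.02 and 0.14 with standard errors of 0.21, 0.27 and 0.24. Mag (chromosome 1, minus strand, 85954511 to 85970832) had 0.04, -0.04 and -0.22 with standard errors of 0.12, 0.15 and 0.14. All 6 intervals of these genes lay within a 2-fold change in either direction. For Mag at 9-14d the interval was -0.51 to 0.06 (adjusted p = 0.209 from limma). Its small value at 5-8d turned positive when the comparison was centred on its median.

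Sox10 and S100b mark the Schwann cell itself. Sox10 is the transcription factor that Schwann cells need at every stage, and S100b is a calcium-binding protein used to stain them, which fat cells and cartilage also make. Sox10 (chromosome 7, minus strand, 117138694 to 117149939 of RGSC 3.4) had log2 changes of -0.04, -0.09 and -0.23, with intervals of -0.25 to 0.18, -0.36 to 0.19 and -0.48 to 0.02. None of them passed (adjusted p = 0.910, 0.695 and 0.139 from limma). At 9-14d the lower end of its interval is 0.719 times the control level. S100b (chromosome 20, minus strand, 12791440 to 12824508) had 0.14, -0.41 and 0.04, with a wider interval of -0.72 to 0.80 at 9-14d.

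The durations were compared with one another directly, since a change that passes at one duration and misses at another does not by itself differ between them. Between 6h-4d and 5-8d, Cnp alone was higher, by 0.79 (SE 0.23, adjusted p = 0.0114), where 21.3% of all probe sets differed, 13.6% higher and 7.64% lower. Between 6h-4d and 9-14d, 2 of the 9 were higher, where 18.1% of all probe sets were higher and 17.4% lower. Cnp differed by 1.25 (SE 0.20, adjusted p = 1.14e-05) and the upstream Mbp probe set by 0.34 (SE 0.10, adjusted p = 0.0132), both from the recovered limma statistics. Between 5-8d and 9-14d, 0 of the 9 differed, 0 had an unadjusted p below 0.05, and 0.408% of all probe sets differed. Pmp22 was lower at 5-8d than at 6h-4d by a difference of -0.92 (interval -1.67 to -0.16), which missed after adjustment (adjusted p = 0.0763). Mag was -0.26 at 9-14d relative to 6h-4d and missed likewise (adjusted p = 0.0740).

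**Figure D2:**
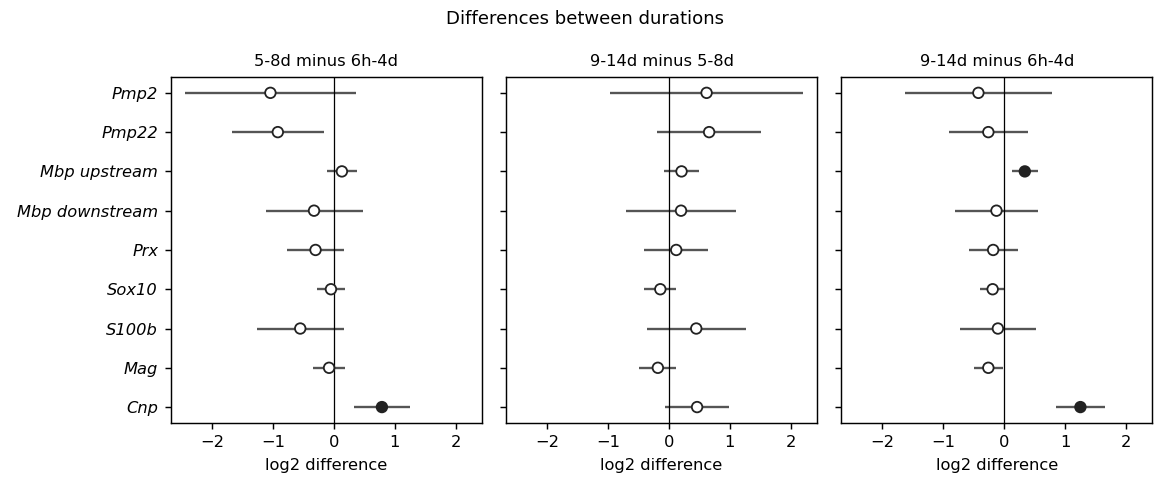
Log2 difference (horizontal axis) of each probe set between pairs of durations, with 95% intervals as bars and filled points for an adjusted p below 0.05. Cnp was higher at both later durations than at 6h-4d (0.79 and 1.25) and the upstream Mbp probe set at 9-14d (0.34), and the step from 5-8d to 9-14d has no filled point.

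The myelin genes varied widely between rats of the same group. The within-group SD, pooled over the 4 groups, moderated by limma and given in log2 units, had a median of 0.203 over all probe sets. It also takes in any difference between rats at hours and at days within the 6h-4d group. Pmp2 had an SD of 1.20, the downstream Mbp probe set 0.680, Pmp22 0.645 and S100b 0.613. These 4 of the 9 lay above the 98th percentile of all probe sets, and 6 of 9 above the 90th, with Prx at 0.399 and Cnp at 0.396. Sox10 (0.200), the upstream Mbp probe set (0.212) and Mag (0.230) were near the median of the array. The intervals were wide to match. At 9-14d 5 of the 9 lay within a 2-fold change in either direction, while 86.1% of the intervals of all probe sets did. At 5-8d, with 4 rats, 4 of the 9 did, against 84.9% of all probe sets.

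Other myelin genes shared this spread, with 5 of 15 further myelin probe sets above the 98th percentile. Among them, Drp2, a partner of periaxin, had an SD of 0.871, Fa2h, which makes hydroxylated myelin lipids, 0.691, and Mal, a myelin membrane protein, 0.624. Such spread was not particular to myelin. Above the same percentile lay 3 of 5 fat cell, 3 of 7 fibroblast and 4 of 10 macrophage probe sets, but 0 of 9 axon and 0 of 5 muscle fibre probe sets. Only 2 of the 9 axon probe sets lay above the median SD, and without levels it is unknown whether their RNAs were present. Without values of single rats it cannot be told whether the same rats were high for all of the genes with wide spread.

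**Figure D3:**
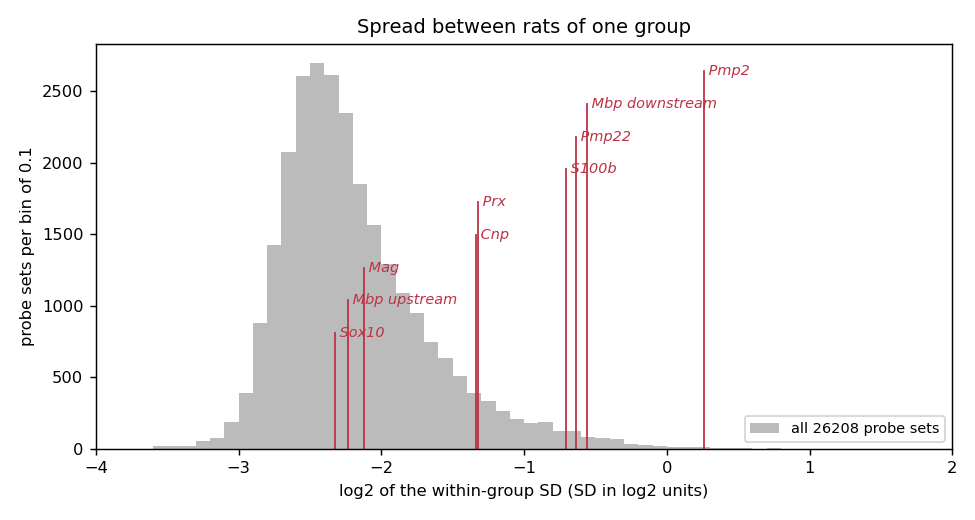
Within-group SD between rats, as its log2 (horizontal axis), for all 26208 probe sets as grey bars counted per bin of 0.1 (vertical axis), with a red line for each of the 9 Schwann cell and myelin probe sets. The height of a red line only places its name, and Pmp2, the downstream Mbp set, Pmp22 and S100b stand in the right tail.

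Of 16 further genes for myelin proteins and lipid enzymes, 15 were matched by symbol. At 6h-4d and at 5-8d 0 of the 15 passed in either direction, with 0 and 1 at an unadjusted p below 0.05, and at 9-14d 0 rose and 2 fell. Those that fell were Mobp (log2 change -0.30, SE 0.09, adjusted p = 0.0129) and Mog (-0.30, SE 0.11, adjusted p = 0.0369), both known as proteins of central rather than peripheral myelin, and neither passed after centring on the median. The shares of all probe sets that passed were 3.54% at 6h-4d and 26.2% at 5-8d, and 17.3% rose and 18.2% fell at 9-14d. Mal stood at 0.21, 0.02 and 0.15 from the first to the last duration, while Drp2 stood at 0.48, 0.33 and 0.47. None of these log2 changes of Mal and Drp2 passed. The median of the list was 0.17, -0.02 and 0.03, so neither the named genes nor the rest of the myelin list showed a fall that passed at 5-8d.

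Among regulators of the Schwann cell lineage, 15 of 16 genes were matched by 16 probe sets. At 5-8d 3 rose and 1 fell, at 9-14d 3 rose and 0 fell, and the median was -0.01 and 0.19. The numbers that rose are near the shares of all probe sets, 14.9% and 17.3%. An adjusted p below 0.01 left 1 of the 4 calls made at 5-8d. The 3 that rose at both durations were Erbb2, Zeb2 and Nab1. Erbb2, a receptor that pairs with Erbb3 to read neuregulin and that muscle fibres also make, had log2 changes of 0.17, 1.09 and 2.21 at the 3 durations (SE 0.27 at 5-8d and 0.24 at 9-14d). Erbb3, its partner in Schwann cells, had 0.26, 0.002 and 0.42 at the 3 durations and did not pass (adjusted p = 0.109 at 9-14d from limma). Zeb2 had 0.61 and 0.75, and Nab1, a corepressor of Egr factors, 0.42 and 0.45 at the later durations. Egr2, the factor that switches on the myelin programme, had -0.01, -0.23 and -0.05, and Pou3f1 and Pou3f2 had -0.23 and -0.18 at 9-14d, none of which passed. Itga6, a laminin receptor subunit, fell at 6h-4d by 0.82 and at 5-8d by 0.94, the single call of this list at 6h-4d.

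Of 15 genes known from Schwann cells of a denervated or injured nerve, 14 were matched, and 0 passed at 6h-4d (3 at an unadjusted p below 0.05), 2 rose and 2 fell at 5-8d, and 2 rose and 2 fell at 9-14d. These counts are near the shares of all probe sets, 14.9% up and 11.4% down at 5-8d and 17.3% up and 18.2% down at 9-14d. An adjusted p below 0.01 left 2 of the 4 made at 5-8d. Ncam1, an adhesion molecule that denervated muscle fibres are also known to express, had log2 changes of -0.09, 2.51 and 3.00, a 7.99-fold rise at 9-14d (interval of the log2 value 2.36 to 3.64). Jun rose by 0.70 at 9-14d and Artn by 0.42 at 5-8d. Gap43 fell by 0.49 and 0.47 and Btc by 0.31 and 0.48 at 5-8d and 9-14d. Ngfr, the low-affinity neurotrophin receptor that repair Schwann cells make, had 0.20, 0.18 and 0.01, and its interval at 9-14d was -0.25 to 0.28 (adjusted p = 0.935 from limma). The list medians were 0.02, -0.02 and -0.06.

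Of 9 axon genes 0 passed at 6h-4d or 5-8d in limma, with 0 and 2 at an unadjusted p below 0.05, and at 9-14d Uchl1 rose by 1.35 and Snap25 fell by 0.30, of which Snap25 no longer passed after centring on the median or at an adjusted p below 0.01. Uchl1 is a ubiquitin hydrolase listed here as a gene of neurons, and which cells of the muscle made its RNA was not tested. Over all probe sets 3.54% and 26.2% passed at 6h-4d and 5-8d, and 17.3% rose and 18.2% fell at 9-14d. The neurofilament genes Nefl, Nefm and Nefh lay between -0.19 and 0.20 at all 3 durations and did not pass. Ratios do not show whether these RNAs were present in the muscle samples, so the values do not describe the state of the axons.

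Markers of other cell types in muscle moved beside these genes. Over all probe sets 14.9% rose and 11.4% fell at 5-8d, and 17.3% rose and 18.2% fell at 9-14d. At 9-14d, when Cnp and the upstream Mbp probe set were up, 9 of 10 macrophage probe sets rose, with log2 changes of all 10 between 0.68 and 1.80 and a median of 1.22. Cd68 had 0.09, -0.01 and 1.51 at the 3 durations, and Cd163 had 1.01, 0.47 and 1.21. At 6h-4d 1 of the 10 macrophage probe sets rose, that of Cd163, where 1.49% of all probe sets rose. At 5-8d, where the log2 change of Cnp was 0.70, 0 of the 10 macrophage probe sets passed, 0 had an unadjusted p below 0.05, and their median was -0.06. Of 6 endothelial probe sets, 4 fell at 5-8d and 4 at 9-14d (medians -0.44 and -0.44). Of 7 fibroblast probe sets, 5 fell at 5-8d, the duration when Pmp22 was lowest, and 3 at 9-14d (medians -1.31 and -0.66). Of 5 fat cell probe sets 0 passed at any duration (2, 0 and 0 at an unadjusted p below 0.05), with a median SD of 0.750. Satellite cell probe sets numbered 5, of which 2 rose and 2 fell at 9-14d, and of 5 muscle fibre probe sets 3 fell then, with a list median of -0.29. The part of these cell types in the changes of Cnp, Mbp and Pmp22 was not tested.

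**Figure D4:**
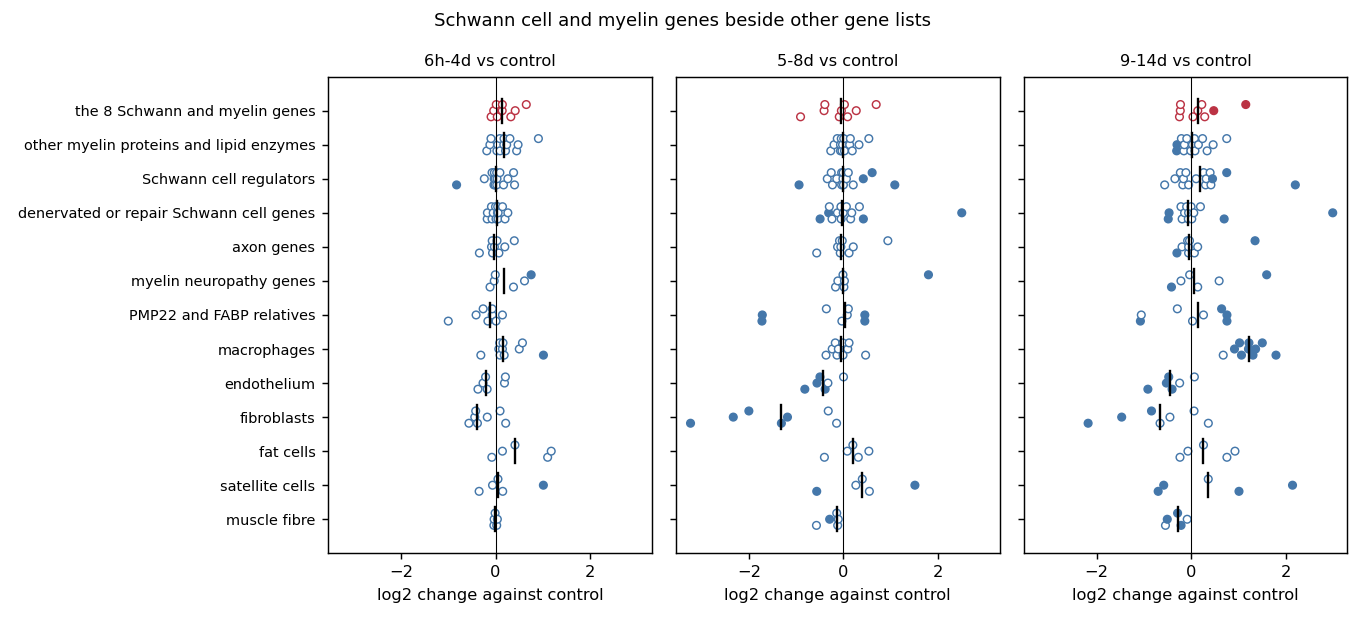
Log2 change against control (horizontal axis) of the probe sets of each gene list (rows) at the 3 durations (panels), with filled points for an adjusted p below 0.05 and a black bar at the list's median. The Schwann and myelin rows stay centred near 0 (medians 0.14, -0.04 and 0.14 in the top row), while the macrophage row stands at a median of 1.22 at 9-14d.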

How the data were processed

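Each of the 28 rats gave RNA to 1 array. According to the methods, the authors normalised the arrays by RMA (the labels name MAS5 and RMA, while the first line of the table speaks of lowess) and fitted a linear model in limma with 3 comparisons against the controls. The deposited table holds the log2 fold change of each comparison and its Benjamini-Hochberg adjusted p-value, over 26208 probe sets, and these columns, the authors' own comparisons, were the measurements used. It has no values of single arrays, so probe brightness is unknown here, and precision follows from the number of rats and from the SD between them.

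Adjustment was undone to give each p-value, and the moderated statistic and SD followed at 28.27 degrees of freedom (24 residual and 4.27 prior), the number at which SDs from the 3 comparisons agreed best. At the 99th percentile of probe sets, SDs from pairs of comparisons were 0.0596%, 0.0584% and 0.0401% apart, and adjusted p-values computed again changed 0 calls. The recovery was tested on simulated data. Differences between durations used these SDs, with Benjamini-Hochberg adjustment over the whole table within each pair.

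Named are all probe sets of the 8 genes and, from the 12 other lists, mainly the first 3 symbols and up to 3 probe sets with the largest change that passed at a duration, with the 3 nearest profiles to Cnp. Drp2, Fa2h, Erbb3 and the values that list genes had at durations where they did not pass were named after their values were seen, and some list genes that the rule names are not reported here. The members and lists were chosen with earlier results of these data known. Promoter windows were matched by gene ID. Alternatives were an adjusted p below 0.01, joint adjustment, adjustment over probe sets with a symbol, centring, exclusion of cross-hybridising probe sets, counts by gene, a 1.5-fold minimum and residual degrees of freedom only. Python 3.11.15, numpy 2.4.6, scipy 1.17.1, pandas 2.3.3 and matplotlib 3.10.9 were used.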

Additional observations from a re-analysis of the deposited data

Results flagged for a closer look

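Differences between durations that passed their own test, from the recovered limma statistics, were found for Cnp and for the upstream Mbp probe set. Cnp was higher at 5-8d than at 6h-4d by 0.79 log2 units and higher at 9-14d than at 6h-4d by 1.25. The upstream Mbp probe set was higher at 9-14d than at 6h-4d by 0.34, while the downstream set differed by -0.13 (95% interval -0.81 to 0.56).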

How the results depend on the processing

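The counts of the 9 Schwann cell and myelin probe sets were small, so a single probe set moves them. At 5-8d against control, 1 of them (Cnp) passed when p-values were adjusted over probe sets with a symbol or when comparisons were centred on their medians, in place of 0. With an adjusted p below 0.01, 0 in place of 1 differed between 6h-4d and 5-8d, and 1 in place of 2 between 6h-4d and 9-14d. Over the 12 other lists together, that threshold left 2 of 4 calls at 6h-4d and 15 of 25 at 5-8d. Among single lists it left 2 of 4 endothelial calls at 5-8d and at 9-14d, 1 of 3 fibroblast calls and 0 of 2 further myelin calls at 9-14d, 1 of 2 satellite cell calls at 5-8d, and 2 of 4 calls among relatives of Pmp22 and Pmp2 at both later durations. The single calls of Itga6 and of Cd163 at 6h-4d were lost. Centring turned the log2 change of Mag at 5-8d from -0.04 to 0.00082. The other counts of these probe sets stayed within 1.5 times of their value under the alternatives run. No paired analysis was possible because the labels give every rat a number of its own. Leaving out single rats was not run, since the table holds comparisons of groups and not values of rats.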

Other observations

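Of 6 probe sets for genes of inherited myelin neuropathies, 1 rose and 0 fell at 6h-4d and at 5-8d, and 1 rose and 1 fell at 9-14d. Over all probe sets 3.54%, 26.2% and 35.5% passed at 6h-4d, 5-8d and 9-14d. Litaf, a late endosomal protein whose mutations cause a demyelinating neuropathy and which many cell types make, rose by 0.75, 1.80 and 1.60 log2 units at 6h-4d, 5-8d and 9-14d (SE 0.15, 0.20 and 0.18, adjusted p = 0.00408, 1.28e-07 and 5.21e-08 from limma). It was the one that rose at all 3 durations, and Mtmr2 fell by 0.41 at 9-14d. Ndrg1 had 0.61, -0.01 and 0.59 and Sh3tc2 -0.03, 0.01 and -0.21, none of which passed.

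Of 8 probe sets for relatives of Pmp22 and Pmp2, 0 passed at 6h-4d in limma (1 at an unadjusted p below 0.05), 2 rose and 2 fell at 5-8d, and 3 rose and 1 fell at 9-14d, beside 26.2% and 35.5% of all probe sets that passed at the later durations. Emp1, a membrane protein of the same family as Pmp22, had log2 changes of -1.71 at 5-8d and -1.07 at 9-14d, both of which passed (adjusted p = 0.00215 and 0.0240 from limma). Emp2 had -0.26, 0.11 and 0.03 and did not pass, and Emp3 had -0.16, -0.36 and 0.65, of which the last passed. Of the fatty acid binding proteins related to Pmp2, Fabp5 rose by 0.46 at 5-8d and 0.76 at 9-14d in 2 probe sets. These hold identical values and are marked as cross-hybridising. They make up both rises counted at 5-8d and 2 of the 3 at 9-14d, so 1 measurement is counted 2 times. The probe set shared by Fabp3 and Zcchc17 had -1.72 at 5-8d (adjusted p = 0.00896 from limma).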
